A study of Mus musculus with 8 samples.

Results

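The Zfp symbols name a large family of mouse zinc finger genes, and 298 of them were among the 11354 genes of the deposited count table. Members are all rows whose symbol is Zfp followed by a digit, a rule on the name that uses no measured value. The comparison was between 4 libraries labelled Nlrp6-/- and 4 labelled wild type, each made from CD4 T cells recovered after transfer into RAG-/- hosts, with Black6 given as the strain background. RAG-/- hosts lack mature T and B cells of their own but keep their myeloid cells. Hosts are numbered 1, 2, 4 and 5 under both labels, and libraries are called by label and host number here (KO 4, WT 2). One label field places the cells in the spleen of the host and other text in the colonic lamina propria, so the tissue is not settled by the labels.

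Nlrp6 itself went against the labels. It had 487, 329, 477 and 648 counts in the libraries labelled knock-out, against 5, 3, 3 and 8 counts in those labelled wild type. The groups are therefore given below as the libraries labelled knock-out and the libraries labelled wild type, and every direction is that of the labels. The 13 T cell markers summed to between 9054 and 9512 CPM in the libraries labelled knock-out and to between 9232 and 10714 CPM in those labelled wild type. Of these markers 2 were called lower, and 11 of 13 had a negative log2 fold change, with a median of -0.10. Of the 2 CD8 markers, 1 was called higher and the other had a negative log2 fold change. Together they summed to between 8.98 and 42.4 CPM in libraries labelled knock-out and to between 4.0 and 9.498 CPM in those labelled wild type. Of 19 measured myeloid markers, 18 were called higher under the knock-out label. They summed to 324, 573, 1019 and 751 CPM in KO 1, KO 2, KO 4 and KO 5, against 94.4, 75.5, 55.6 and 71.3 CPM in WT 1, WT 2, WT 4 and WT 5. None of the 4 B cell markers was among the genes analysed here. Totals ran between 35198192 and 39325381 counts in the libraries labelled knock-out and between 38003997 and 40310721 in those labelled wild type. KO 4 and KO 5 carry the code 8 in their sample descriptions and the other 6 libraries the code 7.

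Most Zfp proteins grip DNA with C2H2 fingers, short loops in which cysteines and histidines hold a zinc ion, strung together so that the array reads a long DNA motif. Many also carry a KRAB domain, which recruits the corepressor TRIM28 and with it the histone methyltransferase SETDB1, and this branch is best known for silencing retroelements. KRAB genes arise by duplication in clusters and differ between mouse strains in number and sequence. A few genes that share the Zfp symbol work otherwise, such as the Zfp36 genes, whose CCCH fingers bind AU-rich messenger RNAs and promote their decay in activated T cells. Searching the GENCODE M21 translations for the letters of these domains put 171 members in a class with a KRAB pattern and C2H2 fingers. A second class of 117 had C2H2 fingers without the KRAB pattern. No other domain was searched for, and a pattern of letters can miss a domain. Another 7 had neither pattern, 1 had the KRAB pattern without C2H2 fingers, and 2 had no coding transcript.

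The family as a whole stayed close to level. Its 298 genes summed to 10691, 10458, 11386 and 10485 CPM in the libraries labelled knock-out, with a mean of 10755 ± 433 (SD, n = 4), against 10050, 10276, 10089 and 10434 CPM in those labelled wild type, with a mean of 10212 ± 178 (SD, n = 4). The lowest library labelled knock-out was above the highest labelled wild type by a narrow margin, and the ratio of the means was 1.05. Without Zfp36, Zfp36l1 and Zfp36l2 the sums averaged 8124 ± 156 CPM (SD, n = 4) under the knock-out label and 8141 ± 156 CPM (SD, n = 4) under the wild-type label, a ratio of 0.998. The difference in the family's sum lay in the 3 RNA decay genes.

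**Figure D1:**
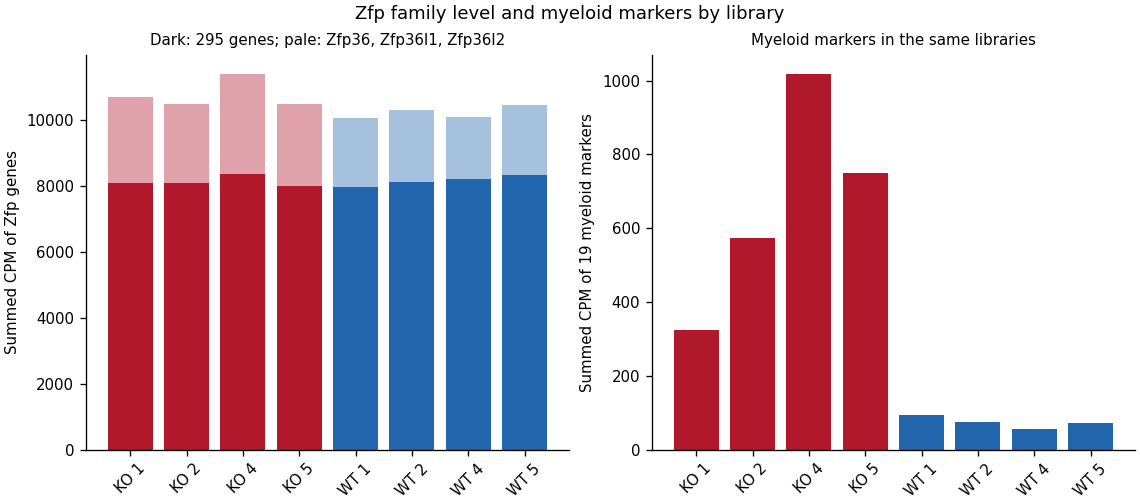
Left, summed CPM of the 298 Zfp genes in each library, with 295 genes in the dark part of the bar and Zfp36, Zfp36l1 and Zfp36l2 in the pale part; right, summed CPM of 19 myeloid markers in the same libraries (red, labelled knock-out; blue, labelled wild type). The dark bars lie between 7942 and 8350 CPM in all 8 libraries, while the myeloid sums lie between 324 and 1019 CPM in libraries labelled knock-out and between 55.6 and 94.4 CPM in those labelled wild type.

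Few single members passed the test. Genes were tested with edgeR's quasi-likelihood test over all 11354 genes, and a gene was called when its p, adjusted by Benjamini-Hochberg, was below 0.05; the log2 fold change is the knock-out label over the wild-type label. Of the 298 members, 16 were called (5.37%), against 10.0% of all genes. There were 6 higher (2.01%, against 6.20% of all genes) and 10 lower (3.36%, against 3.84% of all genes), and 282 were not called. The median log2 fold change was -0.03 over the members, with quartiles at -0.12 and 0.06, and -0.0026 over all genes, with quartiles at -0.09 and 0.09. At the upper end the members spread less: their 95th percentile was 0.20, against 0.65 over all genes. A fold change of at least 2 in either direction was reached by 3 members (1.01%), Zfp516, Zfp385a and Zfp987, against 4.29% of all genes. All 3 were higher under the knock-out label, and of the 16 called members 14 had a log2 fold change of less than 1 in size. The labels did not overlap in CPM for 28 members (9.40%), 12 higher and 16 lower, against 16.0% of all genes.

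**Figure D2:**
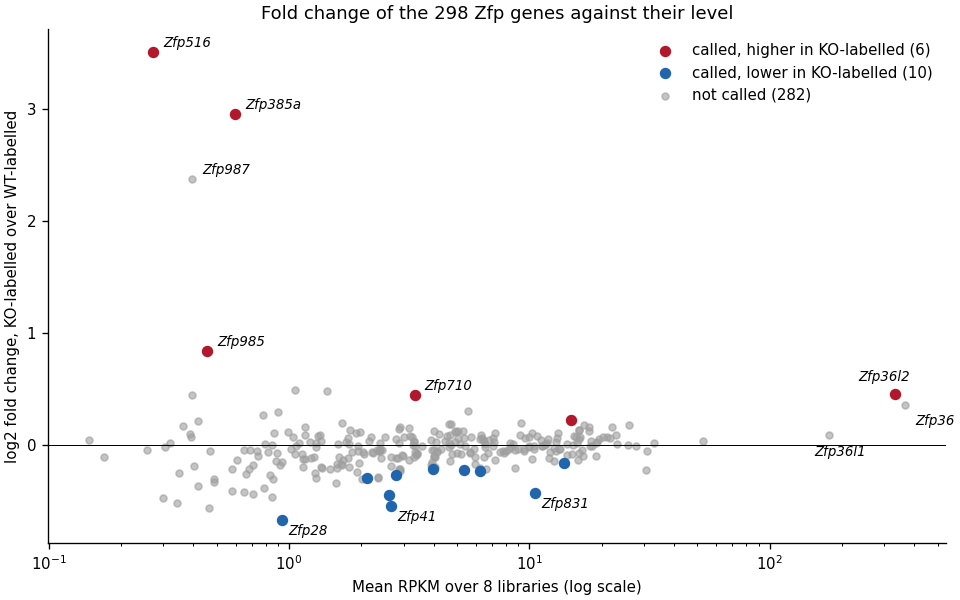
Log2 fold change of each of the 298 Zfp genes, labelled knock-out over labelled wild type, against its mean RPKM over 8 libraries on a log axis (red, called higher; blue, called lower; grey, not called). Zfp516, Zfp385a and Zfp987 stand above 2 at levels under 1 RPKM, and nearly all other genes lie in a band around 0.

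Whether single members were on under one label and off under the other was asked with a rule of size: the lowest library under one label had to be at least 4 times the highest under the other. Zfp516 met it, 1 of 298 members (0.336%), against 0.854% of all genes. At a gap of 2-fold in place of 4-fold, Zfp385a joined it (0.671%, against 2.29% of all genes). At 8-fold no member was left, and 13 genes of all. The stricter rule, a 4-fold gap with every library of the low label under 0.5 CPM, was met by 0 members and by 35 of all genes. The deposited table kept genes of about 1 CPM or more in 4 libraries. A member below that floor in every library of 1 label could therefore enter only by being above it under the other. Such a gene had to differ. Zfp516 and Zfp385a had 1 CPM or more in all libraries labelled knock-out and in none labelled wild type. No member showed the reverse. Zfp985 and Zfp987 reached 1 CPM in all libraries labelled knock-out and, under the wild-type label, in WT 4 alone. Their entry therefore also relied on the knock-out label, and passing the filter already required high values there. In all, 14 members were below 1 CPM in at least 1 library, 3 of them called higher, and the other 284 had 3 higher and 10 lower calls.

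Zfp516, a C2H2 protein on chromosome 18 (GRCm38 positions 82909688 to 83005314) that works with the demethylase LSD1 in mouse brown fat, had the largest fold change. Its level was 2.54, 2.95, 6.51 and 3.66 CPM in KO 1, KO 2, KO 4 and KO 5, against 0.563, 0.306, 0.127 and 0.365 CPM in WT 1, WT 2, WT 4 and WT 5. These values rest on between 98 and 222 counts per library labelled knock-out and between 5 and 23 counts per library labelled wild type. The lowest library labelled knock-out was 4.50 times the highest labelled wild type. The log2 fold change was 3.50 ± 0.43 (SE, edgeR adjusted p = 0.000821), and the gene was called in all 8 fits that left out 1 library, with values between 3.15 and 3.86.

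Zfp385a, also known as Hzf and described as a zinc finger partner of p53 and in megakaryocytes, lies on chromosome 15 (positions 103313895 to 103340086). It had 1.73, 2.16, 3.70 and 2.50 CPM in KO 1, KO 2, KO 4 and KO 5, against 0.441, 0.306, 0.278 and 0.261 CPM in WT 1, WT 2, WT 4 and WT 5. Its labels were 3.93-fold apart at the nearest, just short of the 4-fold gap. The log2 fold change was 2.95 ± 0.30 (SE, edgeR adjusted p = 0.000415). Within 1 Mb of it, 19 other genes were measured. Of these 2, Itga5 and Gpr84, were called higher and 0 lower. Of all genes 6.20% were called higher and 3.84% lower.

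Within the knock-out label both genes were lowest in KO 1 and highest in KO 4, with KO 2 below KO 5 between them, and the summed myeloid markers ranked these libraries alike. Within the wild-type label WT 1 was highest for both genes and for the myeloid sum, but the other libraries were not ranked alike. With the mean log2 level of the myeloid markers as a covariate, the log2 fold change was 0.52 ± 0.83 (SE) for Zfp516 and 0.78 ± 0.63 (SE) for Zfp385a. In that edgeR fit 0 of the 298 members and 4 of all genes were called, and 8 members had an unadjusted p below 0.05. The median standard error of the 16 called members was 0.29 in it, against 0.08 without the covariate, since every library labelled knock-out had a higher myeloid level than every library labelled wild type. With the description code as a term, which leaves the labels compared within code 7 because code 8 holds libraries labelled knock-out alone, 3 members were called higher (Zfp516, Zfp385a and Zfp710) and 4 lower (Zfp41, Zfp951, Zfp831 and Zfp12). Of all 11354 genes, the fit with the code called 745. Label and myeloid level cannot be told apart in these 8 libraries, nor can fewer cells of a type and less RNA per cell.

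**Figure D3:**
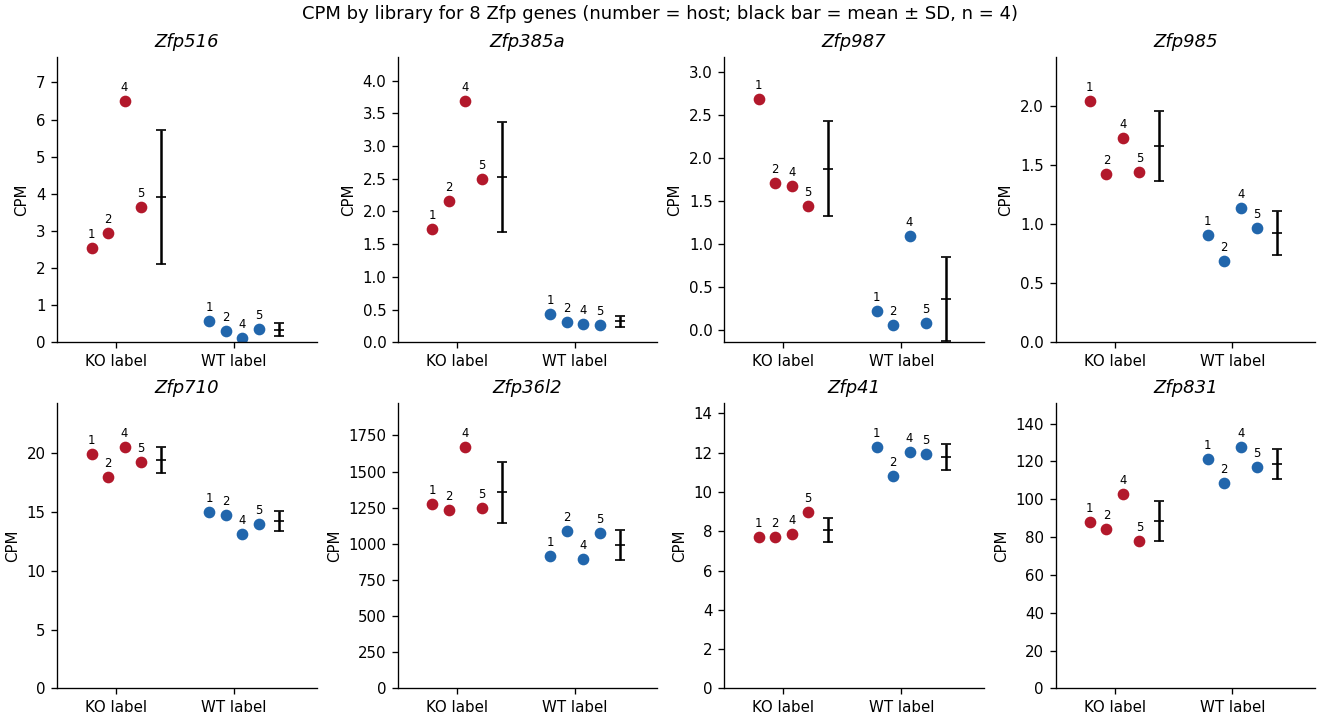
CPM in each library for 8 Zfp genes, labelled knock-out on the left of each panel and labelled wild type on the right, with the host number above each point and the mean ± SD (n = 4) as a black bar. Zfp516 and Zfp385a are apart with KO 4 highest, WT 4 stands above the other libraries of its label for Zfp987, and Zfp41 and Zfp831 are lower in every library labelled knock-out.

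Zfp985, which was called higher, and Zfp987, which was not called, are KRAB genes in a cluster on chromosome 4. Their promoters were picked for comparison after the values were seen, and the genes themselves were not aligned with each other. The bases shown lie before the start of each gene, so their identity does not bear on assigning RNA reads. The RefSeq sequence (GRCm38.p6) of the 250 bases before each gene's start, plus strand, is given 5′ to 3′ for Zfp987 at chr4:146097062-146097311 and for Zfp985 at chr4:147553027-147553276. Capitals mark bases with no identical partner in the alignment of the pair, including the ends, where the windows are offset.
Zfp987: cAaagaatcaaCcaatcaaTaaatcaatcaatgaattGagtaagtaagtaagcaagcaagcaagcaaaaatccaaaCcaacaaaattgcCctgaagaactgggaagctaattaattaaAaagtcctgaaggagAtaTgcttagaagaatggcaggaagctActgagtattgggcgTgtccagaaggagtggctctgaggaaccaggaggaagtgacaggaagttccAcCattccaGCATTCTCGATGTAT
Zfp985: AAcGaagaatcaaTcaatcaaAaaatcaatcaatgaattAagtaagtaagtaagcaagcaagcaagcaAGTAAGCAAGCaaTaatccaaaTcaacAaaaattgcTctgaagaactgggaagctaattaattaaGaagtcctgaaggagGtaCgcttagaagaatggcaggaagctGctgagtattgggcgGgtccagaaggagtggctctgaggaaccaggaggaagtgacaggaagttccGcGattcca

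The alignment had 265 columns, of which 222 were identical (83.8%). The same window of Zfp984, a neighbour in the cluster, was identical to that of Zfp987 in 72.9% of columns, and that of Zfp982 in 50.2%. The letters AGGAAGT, searched on both strands after the pair had been read, occurred 2 times in each promoter and at least 1 time in 7.69% of 32851 promoter windows of the same length. Reads of 81 bases could be shared: of the 81-base windows of Zfp987 transcripts, 79.2% also occurred in transcripts of another gene, against 3.38% for Zfp985. With so few windows of Zfp985 shared, most of the shared windows of Zfp987 lie in genes other than Zfp985. Because its reads could be shared, the value of Zfp987 is uncertain.

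Zfp987 was singled out after its values were seen. It entered the count table through the knock-out label, so its difference is not independent of that filter. It had 2.69, 1.71, 1.67 and 1.44 CPM in KO 1, KO 2, KO 4 and KO 5, against 0.220, 0.0510, 1.09 and 0.0783 CPM in WT 1, WT 2, WT 4 and WT 5. In counts this was 104, 67, 57 and 57 under the knock-out label, against 9, 2, 43 and 3 under the wild-type label. The labels did not overlap, but WT 4 came near the lowest library labelled knock-out while the other 3 were close to 0. The log2 fold change was 2.37 ± 0.68 (SE, edgeR adjusted p = 0.0593) and missed the threshold; DESeq2 gave an adjusted p of 0.0145 and limma-voom with quality weights 0.00757. Of the 8 edgeR fits that left out 1 library, 1 called it, with log2 fold changes between 2.01 and 3.95. Without WT 4 it also met the 4-fold gap.

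Zfp985 had 2.04, 1.43, 1.73 and 1.44 CPM in KO 1, KO 2, KO 4 and KO 5, against 0.906, 0.688, 1.14 and 0.966 CPM in WT 1, WT 2, WT 4 and WT 5. Zfp985 too entered the count table through the knock-out label, so its difference is not independent of that filter. Its log2 fold change was 0.84 ± 0.22 (SE, edgeR adjusted p = 0.0374), and 1 of the 8 fits without 1 library called it, with a highest adjusted p of 0.106; with the description code as a term its adjusted p was 0.0956. For both genes KO 1, the library with the lowest myeloid sum of its label, was highest, and with the myeloid covariate the log2 fold changes were 5.20 ± 1.93 for Zfp987 and 1.60 ± 0.71 for Zfp985 (SE). The other members of the cluster did not pass the test: Zfp982 had a log2 fold change of 0.08, Zfp992 of 0.07, Zfp933 of 0.02 and Zfp984 of 0.01. Around Zfp987, 8 other genes lay within 1 Mb, and around Zfp985 18, of which edgeR called none, against 10.0% of all genes.

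The remaining 3 calls upwards were small. Zfp710, a C2H2 gene on chromosome 7, had 19.9, 18.0, 20.6 and 19.3 CPM under the knock-out label, against 15.0, 14.7, 13.1 and 13.96 CPM under the wild-type label, with a log2 fold change of 0.45 ± 0.07 (SE, edgeR adjusted p = 0.00242). It was called in all 8 fits without 1 library. Zfp236, the only measured member within 1 Mb of Zfp516, averaged 157 ± 9.83 CPM under the knock-out label and 134 ± 4.69 CPM under the wild-type label (SD, n = 4 each), with a log2 fold change of 0.22 ± 0.05 (SE, edgeR adjusted p = 0.0223); 6 of the 8 fits without 1 library called it.

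The Zfp36 genes, whose proteins bind AU-rich messenger RNA, stood far above the rest in level per length. Over 8 libraries Zfp36 averaged 367 RPKM, Zfp36l2 333 RPKM and Zfp36l1 177 RPKM, followed by the spindle and splicing protein gene Zfp207 at 52.7 RPKM and the ubiquitin ligase gene Zfp91 at 33.1 RPKM. The median member had 3.48 RPKM and the lowest, Zfp966, 0.147 RPKM. Zfp36l2 had 1276, 1231, 1674 and 1249 CPM in KO 1, KO 2, KO 4 and KO 5, against 917, 1086, 894 and 1073 CPM in WT 1, WT 2, WT 4 and WT 5. Its log2 fold change was 0.45 ± 0.11 (SE, edgeR adjusted p = 0.0294), KO 4 being highest, and it was called in 5 of the 8 fits without 1 library. With the myeloid covariate the value was -0.13. Zfp36, also called tristetraprolin, averaged 728 ± 111 CPM under the knock-out label and 567 ± 69.9 CPM under the wild-type label (SD, n = 4 each); its libraries overlapped and its log2 fold change of 0.36 had an edgeR adjusted p of 0.0963. Zfp36l1 differed by 0.09 on the log2 scale (edgeR adjusted p = 0.532). Of these 3 genes edgeR called 1, DESeq2 2. Over all 11354 genes edgeR called 1140 and DESeq2 1579.

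The 10 members called lower ranged between 10.3% and 36.9% below the wild-type label. Zfp41 had 7.68, 7.69, 7.86 and 8.98 CPM in KO 1, KO 2, KO 4 and KO 5, against 12.3, 10.8, 12.02 and 11.9 CPM in WT 1, WT 2, WT 4 and WT 5. The highest library labelled knock-out stayed below the lowest labelled wild type, and the log2 fold change was -0.55 ± 0.08 (SE, edgeR adjusted p = 0.00266). Zfp831, a C2H2 gene on chromosome 2, had 88.0, 84.1, 103 and 78.1 CPM under the knock-out label, against 121, 109, 128 and 117 CPM under the wild-type label, with a log2 fold change of -0.43 ± 0.08 (SE, edgeR adjusted p = 0.0103). These 2 were called in all 8 fits without 1 library; the other 8 lower calls held in 1 to 4 of the 8. Zfp28, a KRAB gene on chromosome 7, averaged 3.0 ± 0.62 CPM under the knock-out label and 4.75 ± 0.72 CPM under the wild-type label (SD, n = 4 each), with an edgeR adjusted p of 0.0464.

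The other lower calls were Zfp951, Zfp157 and Zfp12 on chromosome 5, Zfp282 on chromosome 6, Zfp952 on chromosome 17, Zfp7 on chromosome 15 and Zfp646 on chromosome 7, with log2 fold changes between -0.44 and -0.16. Except for Zfp646 these are KRAB genes.

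By class, the KRAB genes with C2H2 fingers had 1 higher and 7 lower calls of 171 (4.68% called), and their median was -0.04 on the log2 scale. The C2H2 genes without the KRAB pattern had 4 higher and 3 lower calls of 117 (5.98% called), with a median of -0.02. Of all genes 10.0% were called, 6.20% higher and 3.84% lower, and the median was -0.0026, and the difference between the classes was not tested. Of 206 members with another member within 1 Mb, 4 were called higher and 8 lower, and of 92 without one, 2 and 2. The 24 members with over 20% of windows shared with another gene had 0 edgeR calls, with 2 at an unadjusted p below 0.05 and 1 call each by DESeq2 and limma-voom. Over all 11354 genes DESeq2 called 1579 and limma-voom 1384.

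By chromosome, the 72 members on chromosome 7, where Nlrp6 lies, had 1 higher and 2 lower calls (4.17%, against 10.0% of all genes) and a median of -0.06. The member nearest to Nlrp6 is Zfp941, 98701 bases away (positions 140807453 to 140822201), named after its values were seen. It had 1.29, 0.917, 0.997 and 2.67 CPM in KO 1, KO 2, KO 4 and KO 5, against 3.21, 1.73, 1.64 and 2.11 CPM in WT 1, WT 2, WT 4 and WT 5. The labels overlapped and the log2 fold change was -0.56 ± 0.37 (SE, edgeR adjusted p = 0.418). Within 1 Mb of Zfp941, 46 other genes were measured, Nlrp6 among them. Of these 2, Nlrp6 being 1, were called higher and 3 lower, against 6.20% and 3.84% of all genes. At least 4-fold apart were 2, again including Nlrp6, against 0.854% of all genes. The 31 members on chromosome 13, home of a large KRAB cluster, had 0 edgeR calls, 3 of them at an unadjusted p below 0.05, and 0 by DESeq2 or limma-voom.

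On chromosome 15, 4 members between positions 75615200 and 76892395 had CPM in every library labelled knock-out below those of every library labelled wild type, a group noticed after its values were seen. Of the 9 members on this chromosome, 5 did not overlap between the labels, 4 lower and 1 higher, beside 16.0% of all genes and 9.40% of members. Zfp41 and Zfp7 were called. Zfp623 averaged 4.47 ± 0.23 CPM under the knock-out label and 5.52 ± 0.26 CPM under the wild-type label (SD, n = 4 each; edgeR adjusted p = 0.0885). Zfp251 averaged 21.7 ± 0.99 CPM and 24.98 ± 1.42 CPM under the same labels (SD, n = 4 each; edgeR adjusted p = 0.0603). Zfp707, which lies between Zfp623 and Zfp251, had a log2 fold change of 0.0050. Within 1 Mb of Zfp41, 45 other genes were measured. Of these 4, among them Ly6c2 and Ly6c1, were called higher and 0 lower, against 6.20% and 3.84% of all genes. Around Zfp7, at the other end of the group, 55 other genes were measured within 1 Mb. Of those 2 were called higher and 1 lower. The windows overlap, and Scrt1 was called in both.

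**Figure D4:**
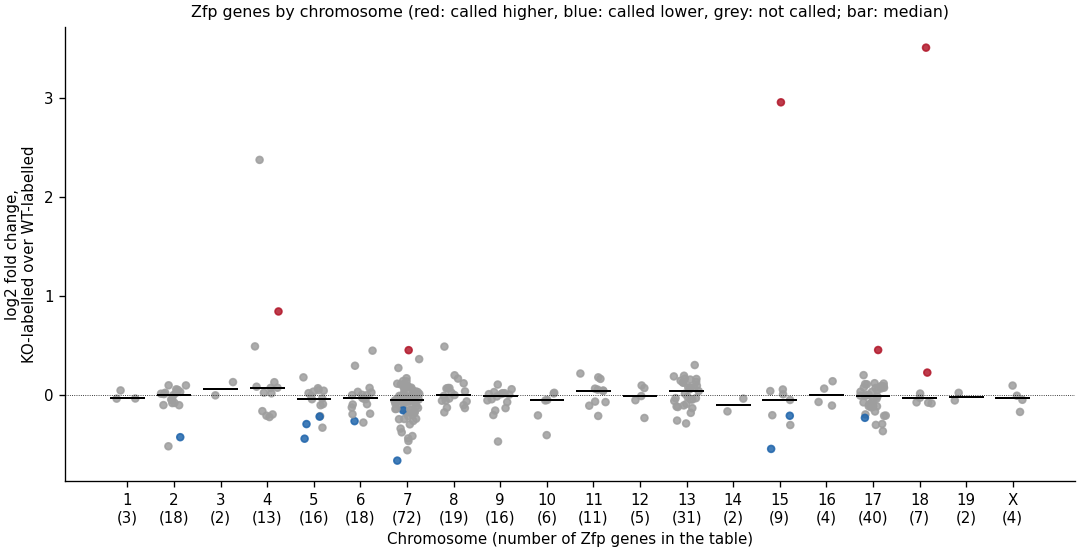
Log2 fold change of each Zfp gene, labelled knock-out over labelled wild type, by chromosome, with the number of genes below each name and the median as a bar (red, called higher; blue, called lower; grey, not called; sideways position is random). The points far from 0 are single genes on chromosomes 4, 15 and 18, and the medians of the chromosomes lie close to 0.

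The lists of members with other known functions held 1 call in all. Of 8 listed lymphocyte regulators, 6 were measured and edgeR called 0, with 0 at an unadjusted p below 0.05 and 0 by DESeq2 or limma-voom. Among them Zfp335, needed for T cell maturation in mice, averaged 117 ± 3.52 CPM under the knock-out label and 117 ± 5.73 CPM under the wild-type label (SD, n = 4 each). Of 7 listed genes of retroelement and imprint silencing, 6 were measured with 0 calls by the same 3 tools and 0 at an unadjusted p below 0.05. Zfp809, which silences retroviruses in mouse embryonic cells, had a log2 fold change of 0.03 ± 0.05 (SE), and Zfp445, a keeper of imprints in mice, of 0.01 ± 0.04 (SE). Of 10 measured members that work with chromatin complexes, Zfp516 was the 1 called, the same share as the 10.0% called of all genes. Of all 11354 genes, 2666 had an unadjusted edgeR p below 0.05. Lists of 6 genes are too short for 0 calls to tell them from that background.

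The corepressors on which KRAB proteins depend were described in the same way. Of 20 such genes edgeR called 1 higher, Chd3, a remodeller of the NuRD complex, with a log2 fold change of 0.41 (adjusted p = 0.0436), and 0 lower, with 4 at an unadjusted p below 0.05 and a median of -0.05. Trim28 had a log2 fold change of 0.01 and Setdb1 of -0.12 (edgeR adjusted p = 0.110). Of 75 zinc finger genes of the Zbtb, Zscan, Zkscan and Zc3h names, 3 were called higher and 1 lower. This was 5.33%, against 5.37% of the Zfp members and 10.0% of all genes. The largest was Zbtb10 with a log2 fold change of 1.62 ± 0.28 (SE, edgeR adjusted p = 0.00543).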

How the data were processed

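RNA of 8 libraries was measured by poly(A) RNA-seq, per the labels' protocols with a stranded TruSeq kit and single reads of 81 bases on a NextSeq 500. STAR and mm10 are named in the submitters' processing notes. The aligner version, counter, annotation and strandedness were not given in the sources used here. Whether reads of overlapping genes were told apart is therefore not known. The deposited values are whole-number counts per gene, with gene length in bases, which the authors had already limited to genes of about 1 CPM in 4 libraries (the lowest fourth-highest CPM was 0.987). No per-sample column was left unused.

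Computed here were TMM-scaled CPM, RPKM from the deposited lengths, and edgeR quasi-likelihood tests with the label alone, over 11354 genes (common coefficient of variation 0.116). Alternatives were other scalings, filters, DESeq2, limma-voom, a replicate block, the description code, the myeloid level and left-out libraries. The edgeR test was tried on simulated counts. Positions are RefSeq GRCm38.p6, the assembly mm10 names; all 298 members matched by Entrez identifier. Protein classes were read from GENCODE M21 translations in place of a RefSeq protein table, which was not used here. Members and lists were chosen with earlier results of these data known. Named genes were those past the 4-fold gap, up to 12 called rises and 12 called falls (here all 6 and all 10), the 5 highest in RPKM and the fixed role groups; Zfp987, Zfp941, Zfp623, Zfp251 and the promoter motif were added after values were seen. Within a label each library carries its own host number, but nothing says that the cells came from separate donors. The p-values therefore cover only how these libraries varied and may not cover variation between donors. Tools were edgeR 4.0.16, DESeq2 1.42.0 and limma 3.58.1 in R 4.3.3, and Biopython 1.88, matplotlib 3.10.9 and pandas 2.3.3 in Python 3.11.15.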

Additional observations from a re-analysis of the deposited data

Results flagged for a closer look

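In 9 of the 44 named members, each checked under both labels, 1 library lay far from the other 3 of its label. Under the knock-out label, KO 4 stood at 1673.6 CPM for Zfp36l2, against 1231 to 1276 CPM in the others. KO 5 stood at 8.98 CPM for Zfp41, KO 2 at 111.7 CPM for Zfp335 and KO 1 at 48.7 CPM for Zfp644. Under the wild-type label, WT 4 stood at 1.09 CPM for Zfp987, against 0.0510 to 0.220 CPM in the others. WT 5 stood at 26.4 CPM for Zfp7 and at 14.6 CPM for Zfp568, WT 2 at 192.7 CPM for Zfp91 and WT 1 at 146.7 CPM for Zfp148. Over all members 32 of 596 groups of 4 libraries were so marked (5.37%), and chance marks about 1 in 20.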

How the results depend on the processing

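The family's median log2 fold change stayed between -0.048 and -0.011 under all 18 alternatives, and the ratio of summed CPM between 1.03 and 1.06 under the 11 that bear on it (other scalings and left-out libraries). Counts of members called moved more. With the description code as a term there were 3 higher and 4 lower calls, with 745 of all 11354 genes called. Without KO 2 and KO 4 there were 3 and 3, with 826 of all genes called. With the myeloid level as a covariate there were 0 and 0, with 4 of all genes called. With the host number as a replicate block, 6 were called higher, 4 of them among the 6 called without it (Zfp985 at an adjusted p of 0.055 and Zfp36l2 at 0.088 were not), and 4 lower; deviations of same-numbered libraries correlated at -0.06, 0.18, -0.14 and 0.26 for hosts 1, 2, 4 and 5, and 3 of 8 libraries correlated best with their own number, so the numbers are not shown to pair them. Leaving out 1 library gave 3 to 6 higher and 2 to 8 lower calls, the fewest without WT 1 and WT 4, and 1 to 2 members past the 4-fold gap. That rule gave 2 members at 2-fold and 0 at 8-fold. DESeq2 called 9 higher and 13 lower, with 1579 of all 11354 genes called. Of all genes the edgeR fit with the label alone called 1140 and that with the host block 1020. The fits without 1 library called between 804 and 1197 of all genes. The causes were not tested.

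Among called members only Zfp36l2 turned sign, to -0.13 with the myeloid covariate. That covariate also turned Zfp36 (-0.16), Zfp207 (-0.036), Zfp281 (-0.088), Zfp609 (-0.12), Zfp568 (-0.063), Zfp592 (-0.00092), Zfp961 (0.35), Zfp410 (0.22), Zfp217 (0.075) and Zfp687 (0.083). Without KO 2 and KO 4 it was Zfp91 (-0.0093), Zfp335 (0.011), Zfp281 (-0.012), Zfp609 (-0.034) and Zfp961 (0.010). Total library size turned Zfp609 (-0.0027) and Zfp445 (-0.011), the description code Zfp687 (0.039) and Zfp518b (0.017), and limma-voom Zfp518b (0.0053). Leaving out 1 library gave log2 fold changes between -0.032 and 0.029 for Zfp335, -0.013 and 0.080 for Zfp281, -0.016 and 0.057 for Zfp609, -0.017 and 0.029 for Zfp445, -0.0055 and 0.085 for Zfp932, -0.013 and 0.073 for Zfp644, -0.044 and 0.039 for Zfp687, and -0.19 and 0.045 for Zfp518b. Members near 1 CPM rest on few counts, which limits their precision.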
